A study of Homo sapiens with 6 samples.

Results

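In HEK293T cells, 11 peaks of the protein G4PID were listed in 4 genes of ribosomal RNA origin: FP671120.1 and FP236383.1, a pair of chromosome 21 loci that each contain a copy of the nuclear 45S ribosomal RNA precursor, MT-RNR2, which encodes mitochondrial 16S ribosomal RNA, and MTRNR2L1, a nuclear copy of MT-RNR2 on chromosome 17. A peak was counted when its midpoint lay within the gene on the same strand. The genes were chosen from the peak lists themselves, so the counts and folds of their peaks are given as a description and were not tested. They are 4 of 1996 genes with a peak in either list, when each peak is assigned to 1 gene, and their peaks are 11 of 270 in the G4PID list (4.07%, 95% Wilson interval 2.29 to 7.15%, counting error only) and 0 of 3660 in the SF3B4 list. With every gene whose span held a midpoint counted, 0.231% of 58780 annotated genes held the midpoint of a G4PID peak and 3.49% that of an SF3B4 peak. The members were selected from those peaks, and nothing is read from their count against these shares.

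The data come from eCLIP, in which a protein is immunoprecipitated with the RNA fragments it contacts and those fragments are compared with an input library. HEK293T is a transformed human embryonic kidney line. The G4PID libraries (2) were made with an anti-HA antibody from cells transfected with pIRES2-G4PID-EGFP, a plasmid for a designed enzyme that biotinylates its surroundings and is targeted to G-quadruplexes, folds of guanine-rich nucleic acid. The SF3B4 libraries (2) were made with an antibody against SF3B4, a splicing factor of the U2 small nuclear ribonucleoprotein, and the input libraries (2) with no antibody. The labels attach 1 protocol text to every library, with transfection of the G4PID plasmid or of pIRES2-miniTurboID-EGFP, the ligase alone, and labelling with 500 µM biotin for 30 min. That text leaves unsettled which plasmid, if any, the SF3B4 and input cells received, as well as whether paired libraries came from separate cultures, and no library of the ligase alone was analysed here. The authors deposited 1 list of peaks per antibody, and no values per library were analysed here, so the spread between libraries could not be measured and the read depth is unknown. The lists give no expression values with which the cell line could be checked. Only peaks past the authors' thresholds are listed, and a gene without a peak is not shown to be free of contact.

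In the nucleolus, RNA polymerase I transcribes tandem repeats into a long precursor that carries the 18S, 5.8S and 28S ribosomal RNAs. The external and internal transcribed spacers (ETS and ITS) that flank and separate them are cut away and degraded during ribosome assembly. Mitochondria make their own ribosomal RNAs from mitochondrial DNA, and 16S is the large one of the pair. Pieces of mitochondrial DNA have also been copied into the nuclear genome, and the MTRNR2L genes are such copies of 16S, annotated for short peptides that resemble humanin, a peptide encoded within MT-RNR2.

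The MT-RNR2 peak (chrM:2205-2265) is shown whole, with each G in capitals, because its base composition is taken up with the results on G content. It and the sequences given with the nuclear copies were taken from the GENCODE release 29 transcripts, on hg38 and on the plus strand of the mitochondrial genome.
MT-RNR2 peak: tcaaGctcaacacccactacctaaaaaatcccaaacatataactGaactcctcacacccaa

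No sequence of the peaks on the 45S copies is printed, because the reference transcripts covered 0 of the 10 G4PID peaks in that part of chromosome 21.

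G4PID peaks on the precursor were listed in its 5′ETS, ITS2 and 28S. RefSeq annotates a complete precursor inside each chromosome 21 gene, RNA45SN2 in FP671120.1 (chr21:8205988-8219302, 13315 nt) and RNA45SN3 in FP236383.1 (chr21:8389035-8402343, 13309 nt). Together these held 9 G4PID peaks, 4 in the 5′ETS, 2 in ITS2 and 3 in 28S. None had its midpoint in 18S, ITS1, 5.8S or the 3′ETS, and none crossed a boundary between parts. The spacers made up 46.8% of the 2 precursors by length and held 6 of the 9 peaks, and the mature rRNAs made up 53.2% and held 3. Per length this was 0.86 peaks per kb in ITS2, 0.55 in the 5′ETS and 0.30 in 28S. The 5′ETS alone covered 27.3% of the length, 28S 38.0% and ITS2 8.73%.

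FP671120.1 (ENSG00000278996.1, chr21:8197620-8227646, plus strand) carried 6 of these peaks. Both of its 5′ETS peaks were of similar height, at a log2 fold over input of 4.09 for chr21:8207912-8208047 and 4.05 for chr21:8209414-8209493. The second of them covered -217 to -138 nt from the first base of 18S. ITS2, the spacer between 5.8S and 28S, held the highest peak of this gene, at 5.12 (chr21:8213314-8213449). A second ITS2 peak, chr21:8213669-8213780, stood at 3.83 and covered -219 to -108 nt from the first base of 28S. Within 28S, the large-subunit rRNA that forms the catalytic centre of the ribosome, peaks were listed at positions 1150 to 1215 (log2 fold 4.02) and 3462 to 3582 (4.63). The 6 values thus ranged from 3.83 to 5.12 with a median of 4.07, and only the first ITS2 peak was above the median of the whole list, 4.92 over 270 peaks.

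FP236383.1 (ENSG00000280441.2, chr21:8380665-8410645, plus strand) carried 3 peaks and a wider range of folds. Its 5′ETS held 2 peaks separated by 4 nt. The first, chr21:8391730-8391804, had a log2 fold of 6.26 and ranked 24 of 270, the highest of all peaks on the precursor. Its neighbour chr21:8391809-8391898 was the lowest of them, at 3.28 and rank 261. The third peak lay in 28S at positions 685 to 756 (chr21:8397610-8397681) with a log2 fold of 3.97.

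The copies did not have peaks in the same places. Measured from the start of 18S or of 28S, 0 of the 8 pairs of peaks that share an anchor overlapped between FP671120.1 and FP236383.1, and the closest pair, both in 28S, was 393 nt apart. Listed peaks covered 651 of 13315 nt of the precursor in FP671120.1 and 237 of 13309 nt in FP236383.1. With so little of each precursor covered, few overlaps would arise by placement alone. No difference between the copies is read from this count. Where the reference gave sequence for both copies, the 2 copies could not be told apart: 5.8S (153 nt), the transcript antisense to part of 18S (923 nt) and the spliced long noncoding RNA outside the precursor (2498 nt) each differed at 0 positions. None of these pieces held a peak, and the sequence under the peaks was not compared. The parts with peaks differed in length between FP671120.1 and FP236383.1: 3643 against 3631 nt for the 5′ETS, 1160 against 1163 for ITS2 and 5054 against 5055 for 28S. No source used here states how reads that match several copies were placed. The position of a peak within the precursor can be read from the list, whereas the copy that gave rise to it cannot be settled. Another complete precursor copy on chromosome 21, RNA45SN1 (chr21:8433222-8446572), had 0 peaks in either list.

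One further G4PID peak lay between the 2 genes and outside the rule. It spanned chr21:8253061-8253085, was 25 nt wide and had no annotated gene on its strand. It covered -781 to -757 nt from the start of RNA18SP5, an 18S pseudogene within a partial rRNA copy. Its log2 fold was 6.19 (rank 27 of 270) and its −log10 p was 400, the maximum of the list. By distance to 18S it overlapped the lower of the 2 neighbouring 5′ETS peaks of FP236383.1 by 14 nt, the single overlap between loci. By this distance alone, peaks at a like position were listed at 2 loci. Neither peak had sequence with which to compare them, and the partial copy has no annotated 5′ETS.

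**Figure D1:**
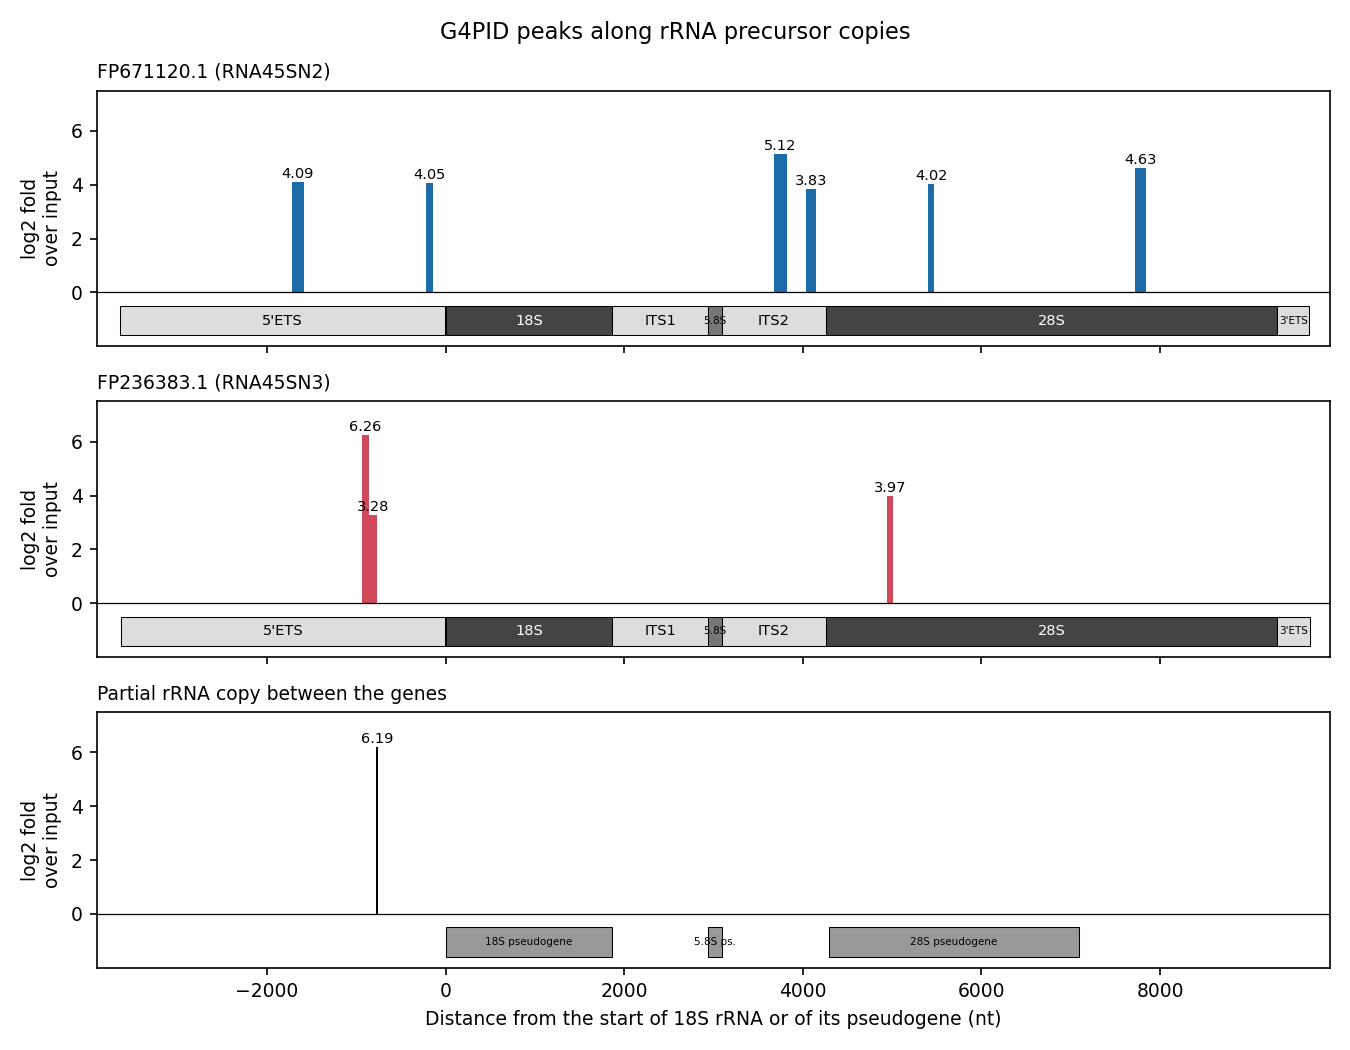
Bars give the authors' log2 fold over input (y axis) of each G4PID peak along 2 precursor copies and a partial copy, placed by distance in nt from the start of 18S or of its pseudogene (x axis), and boxes below them mark the annotated parts. Spacers (light) carried 6 of 9 peaks and 28S carried 3, and 18S carried none. The peak of the partial copy at 6.19 overlaps, by distance, only the lower peak of the FP236383.1 pair, by 14 nt. It lies 80 nt from the higher one.

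All 9 peaks fell in introns of the long noncoding RNA models, whose 7 exons lie outside the precursor. The precursor occupied 44.3% of FP671120.1 and 44.4% of FP236383.1, and the rest of each gene, which corresponds to spacer between repeats, held 0 peaks. Both genes therefore appear in the list through the precursor and not through the spliced RNA after which they are named. Small RNAs annotated within the 5′ETS of FP671120.1 were not at the peaks of that gene. MIR3648-1 and MIR3687-1, a pair of microRNA genes, lay 426 and 510 nt from the nearest FP671120.1 peak. No small RNA was annotated within the 5′ETS of FP236383.1, so its peaks were not compared in this way. By the distance used above to compare loci, MIR3687-1 overlapped the lower of the neighbouring FP236383.1 5′ETS peaks and spanned the peak between the genes. With 66 to 136 nt (median 90), every precursor peak was wider than the list median of 61 nt.

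RefSeq places 565 loci of 45S, 28S, 18S, 5.8S and 5S type on the chromosomes. Apart from RNA45SN2, RNA45SN3 and their 28S parts, 561 of them had 0 G4PID and 0 SF3B4 peaks, whichever strand was counted. At the G4PID share of 0.231% over all annotated genes, a count of 0 in a list of this size is near the background. Neither list contained a peak on a sequence outside the numbered chromosomes, X, Y and M. Whether precursor copies on unplaced sequence were mapped is not known.

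MTRNR2L1 (ENSG00000256618.2, chr17:22523111-22524663, plus strand) had the highest fold of the G4PID list and MT-RNR2 (ENSG00000210082.2, chrM:1671-3229, plus strand) one of the lowest. The single MTRNR2L1 peak, chr17:22524409-22524478, was 70 nt wide with a log2 fold of 9.97, and the next peak of the list stood 2.26 below it at 7.71. It lay in the annotated 3′UTR, 272 nt after the stop codon. The single MT-RNR2 peak was 61 nt wide with a log2 fold of 3.20, rank 266 of 270, with 4 peaks below it. The −log10 p was 15.7 for the MTRNR2L1 peak, a value it shared with 28 others, and 400 for the MT-RNR2 peak, shared with 18 others. No order by p is read from these tied values.

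**Figure D2:**
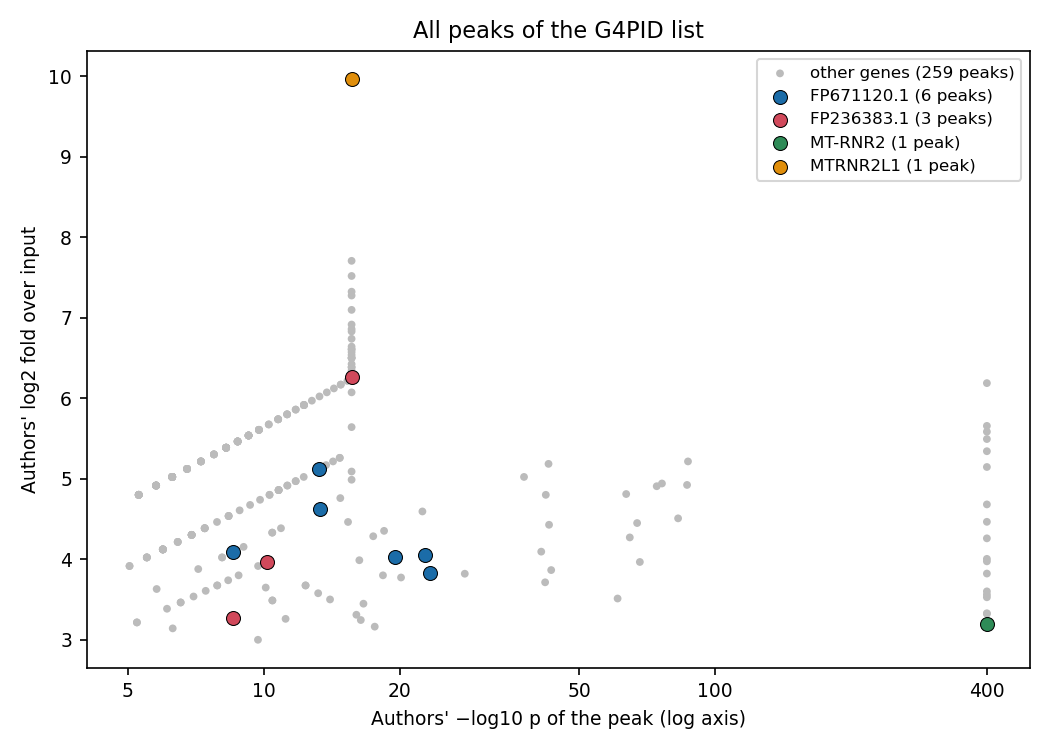
Each point is 1 of the 270 G4PID peaks, with the authors' −log10 p on a logarithmic x axis and the authors' log2 fold over input on the y axis; colours mark the 11 peaks in ribosomal RNA genes. MTRNR2L1 stands alone at 9.97, MT-RNR2 sits at the lower right corner at 3.20 and 400, and 7 of the 9 precursor peaks lie below the list median of 4.92.

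The 2 peaks did not fall on the same part of 16S. Aligned over 1540 positions, MTRNR2L1 and MT-RNR2 were 89.5% identical. The MT-RNR2 peak covers positions 535 to 595 of 1559, and the MTRNR2L1 peak, placed on MT-RNR2 by the alignment, did not overlap it. Within its peak MTRNR2L1 differed from MT-RNR2 at 2 of 70 positions. Windows of 70 nt along the alignment differed at 8 positions in the median and at 18 in the most divergent one, and 4.64% of 1466 windows had 2 or fewer differences. The peak therefore lay in a stretch where the copy is close to the mitochondrial sequence, and beyond MT-RNR2 the closest match among the copies was MTRNR2L3, with 7 differences. The MT-RNR2 peak was more distinct from the annotated copies, since its closest matches among them, MTRNR2L1 and MTRNR2L12, each had 8 differences over 61 nt. No gene outside the family matched either peak with differences at 10% or fewer of its positions. Only annotated transcripts were searched, so copies elsewhere in the nuclear genome were not covered.

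Of the 13 MTRNR2L genes, 3 had a G4PID peak (23.1%), beside 0.231% of all annotated genes, and 1 of the 3 was a member chosen for its peak. Beside MTRNR2L1 these were MTRNR2L8 (chr11:10508564-10508603, minus strand, log2 fold 4.92) and MTRNR2L12 (chr3:96617866-96617940, minus strand, log2 fold 3.77). They are not members of the rule and were taken from a list of the whole family. The MTRNR2L12 peak differed from MT-RNR2 at 1 of 75 positions (C35T), and the MTRNR2L8 peak at 4 of 40 (C2T, A3G, C25T and A39G), counted from the 5′ end of the peak with the MT-RNR2 base first. Placed on MT-RNR2, the MTRNR2L8 peak covered positions 586 to 625 and overlapped the MT-RNR2 peak by 10 nt. The MTRNR2L12 peak covered positions 296 to 370, 164 nt before the MT-RNR2 peak. The 4 peaks of the family thus fell on 3 separate stretches of 16S. The MT-RNR2 sequence under the peaks of both other copies follows, with the positions that differ in the copy in capitals, to show where each copy departs from mitochondrial rRNA.
MT-RNR2 at the MTRNR2L12 peak (chrM:1966-2040): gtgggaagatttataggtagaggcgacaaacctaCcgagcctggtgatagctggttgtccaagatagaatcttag
MT-RNR2 at the MTRNR2L8 peak (chrM:2256-2295): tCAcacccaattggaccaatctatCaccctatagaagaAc

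Over their whole length, MTRNR2L12 and MTRNR2L8 were 95.3% and 93.2% identical to MT-RNR2 over 1047 and 1301 aligned positions. Among the copies without a peak, the short MTRNR2L2 and MTRNR2L9, each aligned over 75 positions, were 94.7% and 90.7% identical, above MTRNR2L1. The 8 others ranged from 80.4% for MTRNR2L4 to 86.6% for MTRNR2L6. Reads of mitochondrial origin and reads of the copies were not separated here, and no source used here says whether reads matching several places were kept.

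**Figure D3:**
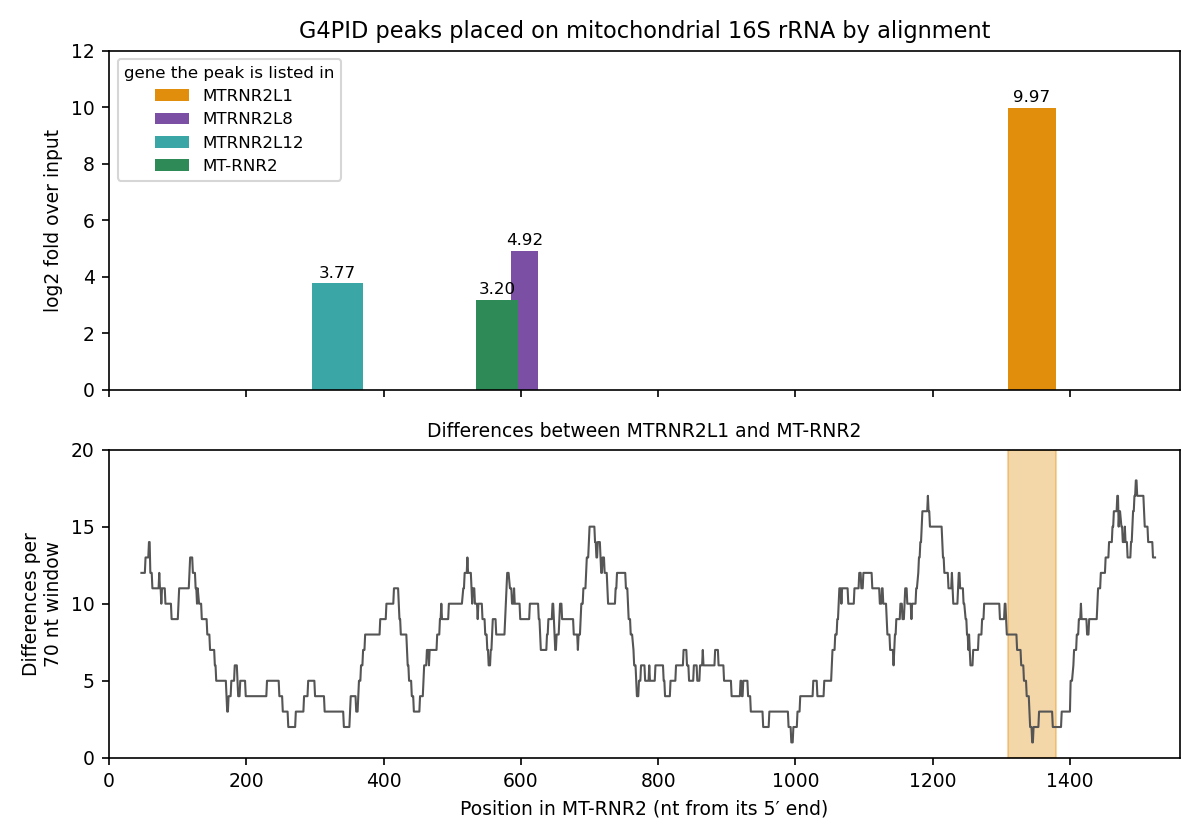
Upper panel: G4PID peaks listed in MT-RNR2 and in 3 nuclear copies, placed on MT-RNR2 by alignment (x axis, nt from its 5′ end), with the authors' log2 fold over input as height. Lower panel: differences between MTRNR2L1 and MT-RNR2 per window of 70 nt; the shaded span is the MTRNR2L1 peak, which had 2 differences against a median of 8.

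Neither the MT-RNR2 nor the MTRNR2L1 peak had a share of G above the median of the other G4PID peaks. The MT-RNR2 peak contained 2 G in 61 nt (3.28%), 42.6% A and 37.7% C, and no pair of adjacent G. With 50 nt on each side its share of G was 10.6%, with 2 runs of 2 G. Of 187 other G4PID peaks for which the reference gave sequence, 1 had a smaller share of G, and their median was 28% (quartiles 20.4 and 37.8%). The MTRNR2L1 peak had 24.3% G, above 68 of those 187 peaks, with 4 runs of 2 G and none longer. The MTRNR2L12 and MTRNR2L8 peaks, both counted among the 187, had 30.7%, above that median, and 15.0%, below it. A quadruplex motif was searched as 4 runs, each of 3 or more G, joined by loops of 1 to 7 nt, in the peak with 50 nt on each side and on the RNA strand. It was present in 0 of the 2 member peaks with sequence, and in 9 of 159 other G4PID windows (5.66%). A count of 0 in 2 windows is near that share. Loops of up to 12 nt or runs of at least 2 G also gave 0 matches in the 2 member windows, where runs of 2 G gave one in 47.8% of the other windows. With only 2 member windows, no lack of the motif is read from these counts.

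**Figure D4:**
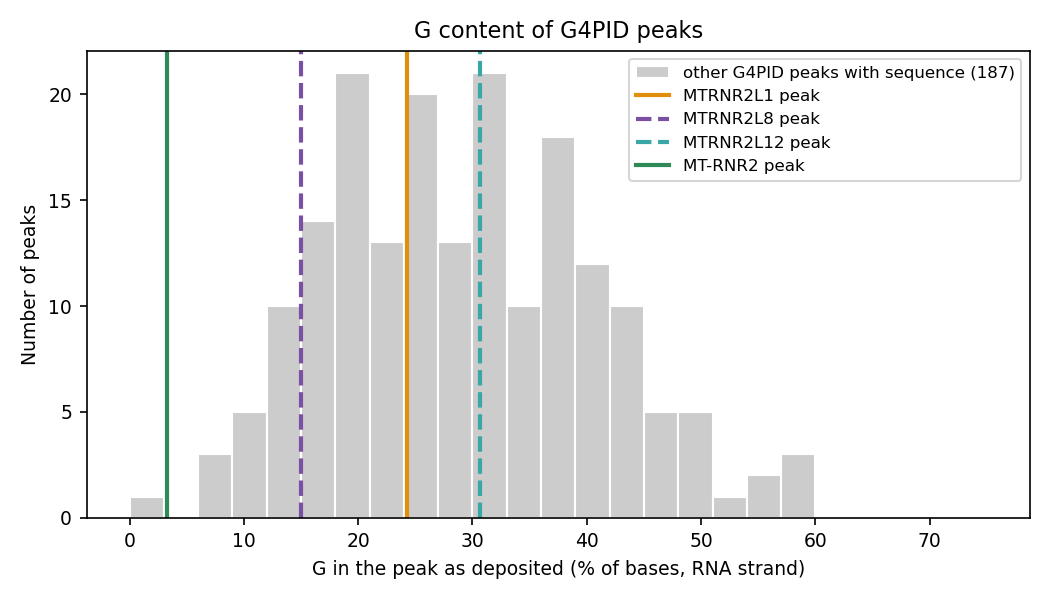
Share of G in each peak as deposited (x axis, % of bases on the RNA strand) against the number of peaks (y axis): grey bars are the 187 other G4PID peaks with known sequence, solid lines the MTRNR2L1 and MT-RNR2 peaks, dashed lines the MTRNR2L8 and MTRNR2L12 peaks, which the bars include. The MT-RNR2 line at 3.28% is at the far left of the distribution and the MTRNR2L1 line at 24.3% is within it.

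For the precursor, sequence was at hand for annotated pieces away from the peaks of their own copy. Those of the 5′ETS were rich in G, at 45% for MIR3648-1 (180 nt, 5 runs of 3 or more G) and 41.0% for MIR3687-1 (61 nt, no such run). The 5.8S gene had 29.4%. The motif was present in none of these 3, and this says nothing of the spacer and 28S bases under the peaks.

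SF3B4 had no peak in any of the 4 genes, and no G4PID peak in them had an SF3B4 peak within 100 nt. The nearest SF3B4 peak on chromosome 21 was 18431367 nt away from FP236383.1, and that chromosome held 61 SF3B4 peaks. Mitochondrial RNA had 0 SF3B4 peaks. Beside 3.49% of all annotated genes with an SF3B4 peak, counts of 0 among 4 genes or 37 mitochondrial RNAs are near the background. On chromosome 17 the nearest SF3B4 peak to MTRNR2L1 was 1222539 nt away.

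Of 37 RNAs encoded by mitochondrial DNA, MT-RNR2 alone had a G4PID peak, and it was chosen for that peak. MT-RNR1, which encodes the small mitochondrial rRNA, and the mitochondrial messenger and transfer RNAs had none. At the G4PID share of 0.231% over all annotated genes, their lack of a listed peak is near the background. No difference between these RNAs and MT-RNR2 is read from it. The 19 annotated genes for small nucleolar and related RNAs of rRNA processing, among them the U3 genes and RMRP, had 0 peaks in either list. The same was true of the 2 antisense long noncoding RNAs within the chromosome 21 genes, and counts of 0 in lists this short are near the background.

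Of 64 genes for proteins of nuclear rRNA transcription and processing, 0 had a G4PID peak, which is near the background of 0.506% of all protein-coding genes. SF3B4 peaks were present in 31 of the 64 (48.4%), beside 9.35% of all protein-coding genes. By the log2 fold of the highest of their SF3B4 peaks, the first were GNL3, which encodes the nucleolar GTPase nucleostemin (5.55, 5 peaks), NOL6 (5.37, 5 peaks) and NCL, which encodes nucleolin (5.20, 3 peaks). NOP58, which encodes a core protein of box C/D small nucleolar ribonucleoproteins, and DKC1, which encodes the pseudouridine synthase dyskerin, followed with the same fold of 5.13 (2 and 3 peaks). Of 30 genes for mitochondrial rRNA synthesis and processing, 0 had a G4PID peak, again near the background, and 10 (33.3%) an SF3B4 peak. The highest of these were LRPPRC, which encodes a stabiliser of mitochondrial messenger RNA (5.50), DHX30, a helicase gene (5.15), and POLRMT, which encodes the mitochondrial RNA polymerase (4.97). RNA amount was not measured here, and its part in these shares was not tested.

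Genes most like the members were found by equal numbers of peaks in both lists and the closest top G4PID fold. With 6 G4PID and 0 SF3B4 peaks, MAFK was closest to FP671120.1 (5.46 against 5.12), and 8 of the 127 genes with a G4PID peak had 6 or more. TNFRSF12A (6.02) and KRT81 (5.92) were closest to FP236383.1 among 9 genes with 3 and 0 peaks. HMGA1 (3.25) and RNU1-136P (3.16) were closest to MT-RNR2. For MTRNR2L1 the closest of 68 genes with 1 G4PID and 0 SF3B4 peaks, GCNT1 (6.61), lay 3.36 below it.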

How the data were processed

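eCLIP libraries of HEK293T cells (2 for G4PID, 2 for SF3B4, 2 input) were represented by 1 peak list per antibody, treated as called over both libraries. The submitters' processing notes name cutadapt 3.4, STAR 2.7.0d and, as builds, hg19 and hg38. For the peak caller, its filters and the treatment of multiply mapping reads, nothing was given in the sources used here. The lists have no header. The first deposited value was read as −log10 p and the second as log2 fold over input, from the column order usual for eCLIP and the ranges of the values. A peak's fold and p are the authors' and serve to describe or rank peaks within a list.

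Peaks were placed with GENCODE release 29 and with the RefSeq records of GRCh38.p14 for the rRNA parts. Genes were aligned end to end with free end gaps (match 2, mismatch -3, gap opening -5, extension -2) with Biopython 1.88, and matches were searched with edlib, allowing up to 15 differences. The sequence under the MTRNR2L1 peak is not reported here. Sequence came from GENCODE transcripts, laid on the genome with 0 disagreeing bases. Python 3.11.15, numpy 2.4.6, scipy 1.17.1 and matplotlib 3.10.9 were used. Placement, alignment and motif search were tested on simulated data. Alternatives covered the rule for placing peaks, stricter thresholds, flanks and the motif. No significance test was run, because the members were selected from the same lists. The members and gene lists were chosen with earlier results of these data known. Named genes were the members, the highest members of the fixed lists and the genes most like each member; the comparison of MTRNR2L8 and MTRNR2L12 with MT-RNR2 was added after their peaks were seen.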

Additional observations from a re-analysis of the deposited data

How the results depend on the processing

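Of 22 values recomputed under another setting for 13 results, 21 stayed within 1.5 times the reported count or, for the share of G, within its 95% Wilson interval. The share of G in the MT-RNR2 peak counts among these, since the interval for 61 bases is wide, although it was 10.6% with 50 nt on each side in place of 3.28%. The exception was the number of G4PID peaks in the 4 genes, which was 7 in place of 11 with a log2 fold of at least 4. It was 9 with −log10 p of at least 10, 11 with any overlap or with both strands counted, and 12 with the partial rRNA copy added, an alternative chosen after seeing the data. No paired analysis was possible because the lists hold no value per library, and for the same reason no library could be left out. Of the 11 peaks, 9 had no sequence, so G content and motifs rest on the other 2.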

Other observations

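The −log10 p of 15.7 given to the MTRNR2L1 peak and to the highest FP236383.1 peak was held by 29 peaks of the G4PID list, these 2 included. It equals −log10 of 2.2e-16 to within 7.1e-15, so these peaks cannot be ordered by p. The log2 fold of the highest FP671120.1 peak, 5.12, was shared to the last digit with 7 other peaks, among them peaks in CD44 and POLR2A, while its −log10 p of 13.3 was shared with none. That of the FP671120.1 peak in 28S at 4.02 was shared with 6 others, and the 6.26 of FP236383.1 with 1, in FLNC.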
